A study of Cyanidioschyzon merolae strain 10D with 3 samples.

Results

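The genes described here are nuclear genes of the photosynthetic antenna of *C. merolae*, a unicellular red alga. They were chosen by locus identifier. CMQ142C, CMN234C and CMN235C encode Lhcr proteins of photosystem I, and CMO250C and CMP166C encode the phycobilisome linkers ApcC and CpcC. Of the 5 identifiers, 4 had a row in the expression tables and CMN235C was not analysed here. The 4 genes were compared with the other 4799 nuclear loci whose identifier ends in C, out of 6823 loci in all. The 4803 nuclear loci ending in C are all listed as protein-coding in the RefSeq table of assembly ASM9120v1. Neither the expression tables nor that table pairs an identifier with a protein name, so the names of the members were taken as given and could not be checked against these data.

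The series holds 3 libraries of polyadenylated RNA, labelled biological replicates 1, 2 and 3, all from liquid cultures of strain 10D. The labels give a temperature of 42°C, a shaking speed of 150 rpm and uninterrupted illumination of 70 μmol for every library. The study's methods add that they were harvested in late log-phase. All libraries shared this condition, so no response of the antenna genes to light could be measured. The deposited values are FPKM, fragments per kilobase per 1000000 mapped fragments. By the confidence limits, the length used as the divisor was shorter than the locus, as described below. Where 3 values follow each other they stand for libraries 1, 2 and 3 in that order.

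Red algae collect light with a pair of antenna systems. Lhcr proteins are membrane proteins that bind chlorophyll and carotenoids and surround photosystem I. Phycobilisomes are soluble complexes of bilin-binding proteins on the outer face of the thylakoid, held together by linker proteins. ApcC is the small linker of the phycobilisome core, and CpcC is a linker between discs of phycocyanin in the rods. In red algae most of the pigment-binding phycobiliproteins and the core subunits of the photosystems are encoded in the chloroplast, whereas the genes described here are nuclear and their products are imported into the chloroplast.

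The libraries were not equally independent. From the confidence limits that accompany each FPKM, a number of fragments can be calculated for each locus that overlaps no other. Their totals were 1.30e+07 in library 1, 2.88e+06 in library 2 and 2.98e+06 in library 3. Between libraries 2 and 3, an index of difference that equals 1 for sampling noise was 0.272, against 21.7 for libraries 1 and 2 and 20.8 for libraries 1 and 3. By these implied fragments, the difference of libraries 2 and 3 was smaller than sampling noise alone would give, and the pair was treated as 1 sample. This rests on limits that hold counting error alone, which was not tested, since wider limits would lower the index. Means are therefore given over library 1 and the mean of libraries 2 and 3 (n = 2). The labels do not say whether the replicates came from separate cultures.

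Both Lhcr genes were among the 5 highest nuclear loci in each library. CMN234C (chromosome 14, 578493 to 579158, coding length 666 bp) reached 7952, 8755 and 8885 FPKM, with a mean of 8386 ± 614 (SD, n = 2). CMQ142C (chromosome 17, 337678 to 338319, 642 bp) reached 6445, 9102 and 9082 FPKM, with a mean of 7768 ± 1872 (SD, n = 2). The order of the pair thus depended on the library, with CMN234C higher in library 1 and CMQ142C higher in libraries 2 and 3. Coordinates are those of the authors' annotation, version 3 of the *C. merolae* Genome Project. The length of 99.6% of the nuclear loci ending in C is a multiple of 3, so the loci are coding sequences and hold no UTR.

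The linker genes were lower than both Lhcr genes in each library. CMO250C, the ApcC gene (chromosome 15, 641288 to 641668, 381 bp), reached 3102, 5101 and 5168 FPKM, with a mean of 4118 ± 1437 (SD, n = 2). CMP166C, the CpcC gene (chromosome 16, 422229 to 423461, 1233 bp), reached 3832, 3764 and 3767 FPKM, with a mean of 3799 ± 47.1 (SD, n = 2). The linkers also changed their order, with CMP166C higher in library 1 and CMO250C higher in libraries 2 and 3. In FPKM, CMP166C, the longest member, was the most even of the 4 genes, with an SD of 1.24% of its mean, and CMO250C, the shortest, was the most variable, with 34.9%.

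**Figure D1:**
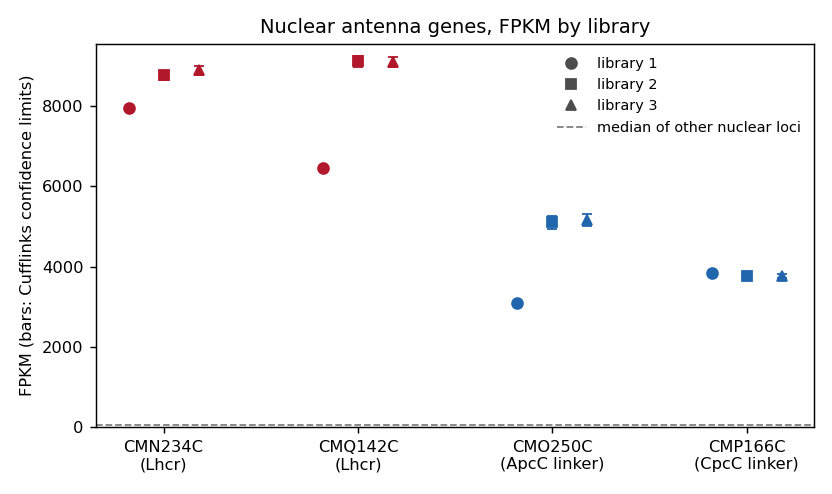
FPKM (y axis, linear) of the 4 antenna genes (x axis) in libraries 1, 2 and 3, with bars for the confidence limits of Cufflinks, in red for Lhcr genes and blue for linker genes. The Lhcr genes lie between 6445 and 9102 and the linker genes between 3102 and 5168, so the classes do not overlap, and the dashed line marks the median of the other nuclear loci.

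The confidence limits were narrow beside the difference between libraries. The SD of counting error was at most 1.51% of the FPKM, the value for CMO250C in library 2. These limits were taken to cover the counting of fragments only. Between libraries 2 and 3 the ratio of FPKM was 1.00 for CMQ142C, 0.985 for CMN234C, 0.987 for CMO250C and 0.999 for CMP166C, and all 4 intervals (95%) from the counting error included 1.

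In FPKM, the mean of the Lhcr genes exceeded that of the linker genes by a similar factor in each library. It was 7198 against 3467 for the linker genes in library 1, 8929 against 4433 in library 2 and 8984 against 4468 in library 3. These are ratios of 2.08, 2.01 and 2.01. The lower Lhcr gene exceeded the higher linker gene 1.68 times in library 1, 1.72 times in library 2 and 1.72 times in library 3. These were not the same genes throughout. They were CMQ142C and CMP166C in library 1, and CMN234C and CMO250C in libraries 2 and 3. Ratios of single genes were less even than those of the means. On the scale of log2(FPKM + 1) the difference of medians was 1.04 ± 0.0197 (SD, n = 2). In an exact two-sided sign-flip permutation test over samples p was 0.5, the smallest that 2 samples can give. With the 3 libraries taken as separate samples it was 0.25, again the smallest possible, so the design cannot pass a threshold of 0.05.

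Of the 3 pairs of neighbours in the order of mean FPKM, only that between the classes kept its direction in each library. CMQ142C was 2.08, 1.78 and 1.76 times CMO250C in libraries 1, 2 and 3, a log2 difference of 0.94 ± 0.16 (SD, n = 2). Within the Lhcr class, CMN234C was 1.23 times CMQ142C in library 1, 0.962 times in library 2 (95% interval from counting error 0.944 to 0.980) and 0.978 times in library 3 (0.961 to 0.996). The mean log2 difference, 0.13, was smaller than its SD of 0.25. Within the linker class, CMO250C was 0.809 times CMP166C in library 1, 1.36 times in library 2 and 1.37 times in library 3, and the log2 difference was 0.07 ± 0.53 (SD, n = 2). In FPKM, both differences within a class were thus smaller than their SD between samples. In the exact two-sided permutation test over samples, the Benjamini-Hochberg adjusted p of each of the 3 pairs was 1, in a design that cannot pass the threshold.

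The antenna genes ranked at the top of the nuclear genome. CMN234C had rank 1 in library 1 and rank 5 in libraries 2 and 3 among the 4803 nuclear loci ending in C. CMQ142C had rank 2, 3 and 4 in libraries 1, 2 and 3. CMO250C had rank 8, 10 and 11, and CMP166C had rank 5, 16 and 16. All 4 genes were thus within the highest 1% of loci (48 loci) in each library, where the limit lay at an FPKM of 986, 1386 and 1339. No test of this position was made, since the genes were chosen with earlier results of these data known.

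**Figure D2:**
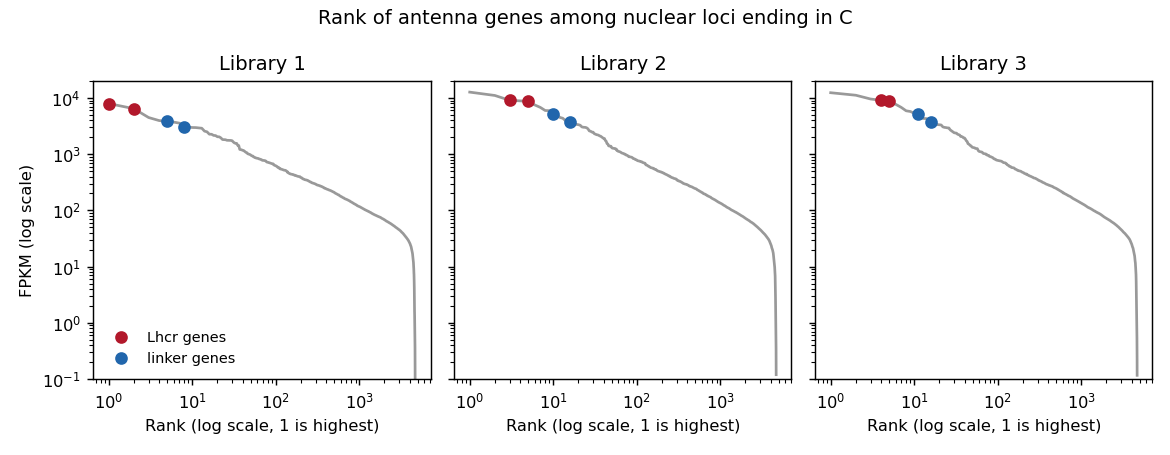
FPKM (y axis, log scale) of the nuclear loci ending in C against their rank (x axis, log scale, 1 is highest), in a panel for each library, with Lhcr genes in red and linker genes in blue. The antenna genes hold ranks 1 to 8 in library 1 and 3 to 16 in libraries 2 and 3, and loci listed at 0 are not drawn.

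The members stood far above a typical nuclear gene. Over the 4 genes the median FPKM reached 5139, 6928 and 7027, against 57.7, 60.3 and 60.3 for the other nuclear loci ending in C. The difference of median log2(FPKM + 1) was 6.59 ± 0.26 (SD, n = 2). For CMN234C the fold over the median of the other loci was 138, 145 and 147 in libraries 1, 2 and 3, and for CMP166C it was 66.5, 62.5 and 62.5. For CMO250C it was 53.8, 84.6 and 85.7, the lowest of the members in library 1 only.

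In FPKM, the share that the 4 genes held was nearly the same in all libraries, although their single values moved. They held 3.93%, 3.91% and 3.93% of the summed FPKM of nuclear loci ending in C, with a mean of 3.93% ± 0.00559 (SD, n = 2). The 2 Lhcr genes accounted for 2.65%, 2.62% and 2.62%, and the 2 linker genes for 1.28%, 1.30% and 1.31%. The summed FPKM of the 4 genes in library 1 equalled that of the 1182 lowest loci, or 24.6% of all nuclear loci ending in C. In libraries 2 and 3 it equalled that of the 1353 and 1357 lowest. Counted in fragments at loci without overlap, the share was 2.55% in library 1 (95% Wilson interval 2.54 to 2.56), 2.70% in library 2 (2.68 to 2.72) and 2.70% in library 3 (2.69 to 2.72). On that scale the share was thus lower in library 1, by intervals that cover counting error only.

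The loci above the members in libraries 2 and 3 were mostly very short. No other locus exceeded either Lhcr gene in library 1. In library 2, 3 other loci exceeded CMN234C, and in library 3, 3 loci did so. All of these were shorter than 300 bp, with the shortest at 135 bp and the longest at 225 bp. Above CMP166C stood 2, 12 and 12 other loci, of which 0, 7 and 7 were shorter than 300 bp.

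The members were also ranked within loci of similar coding length, a smaller set in which a rank cannot be lower than among all loci. Within the 704 loci no more than 25% longer or 20% shorter than CMQ142C, this gene had rank 2 in library 1 and rank 1 in libraries 2 and 3, and CMN234C took the other of these ranks among its own 745 loci. The highest locus of similar length that is not an antenna gene, CML063C, reached 3717, 3939 and 4052 FPKM, which CMN234C exceeded 2.14, 2.22 and 2.19 times. CMO250C had rank 2 of 294 loci in each library and was 32.6, 30.7 and 32.6 times the median of these loci. CMP166C had rank 3 of 1356 loci in each library, and was 64.9, 61.8 and 61.5 times their median.

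The expression profile most like that of each Lhcr gene belonged to the other Lhcr gene. Likeness was measured as the Euclidean distance of log2(FPKM + 1) over the 3 libraries, which with a single condition reflects mainly the level. CMN234C and CMQ142C were 0.31 apart, and the next locus, CMT172C, was 1.01 from CMQ142C and 1.15 from CMN234C. For CMO250C the nearest locus was CMH087C, at a distance of 0.08, with 2983, 5056 and 5343 FPKM. CMH087C is short like CMO250C (291 bp) but overlaps another locus, so its value is uncertain. For CMP166C the nearest were CML063C at 0.13 and CMI049C at 0.29. No member of the linker pair was among the 3 nearest loci of the other.

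The difference between library 1 and the other libraries was uneven among the members. On the scale of log2(FPKM + 1), library 1 minus the mean of libraries 2 and 3 was -0.73 for CMO250C, -0.50 for CMQ142C, -0.15 for CMN234C and 0.03 for CMP166C, against a median of -0.05 over all 4803 loci. Only CMO250C was lower in library 1 by more than 1.5 times, with a factor of 1.66. This was 1 of 4 members, where 7.18% of all nuclear loci ending in C were lower by that factor and 2.19% were higher.

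Differences of this size were common at loci as short as CMO250C. Of 293 other loci of similar coding length, 130 (44.4%) were lower in library 1 by more than 1.5 times, and their median difference was -0.54. Relative to loci of similar length, CMO250C differed by -0.19, CMQ142C by -0.30, CMN234C by 0.03 and CMP166C by 0.05 on the log2 scale. CMQ142C was lower in library 1 than most loci of its length, since 18.1% of 703 such loci had a lower value.

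**Figure D3:**
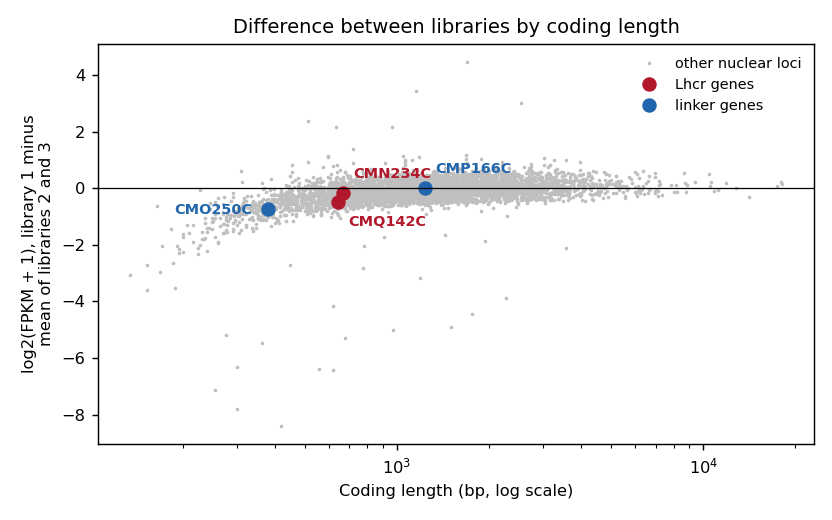
Difference of log2(FPKM + 1), library 1 minus the mean of libraries 2 and 3 (y axis), against coding length in bp (x axis, log scale), for nuclear loci ending in C with a mean FPKM of at least 1. Most of the shortest loci lie below 0, and the antenna genes range from -0.73 for CMO250C (381 bp) to 0.03 for CMP166C (1233 bp). CMQ142C (642 bp) and CMN234C (666 bp) are close in length but lie apart, at -0.50 and -0.15.

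The FPKM of short loci rests on the length by which the fragments were divided. The ratio of implied fragments to FPKM shows this divisor. Over 2459, 2425 and 2424 loci longer than 1000 bp it followed the coding length less 194 bp in library 1, 232 bp in library 2 and 236 bp in library 3, with a residual SD of 6.42%, 5.94% and 6.31%. The deposited FPKM of CMO250C thus came from a divisor of 187, 153 and 152 bp, or 49.1%, 40.1% and 39.8% of its coding length. For CMP166C it was 82.9%, 79.4% and 80.1%. For CMN234C the implied divisor was 540, 500 and 493 bp, which is 14.6%, 15.2% and 14.7% above the line, further than 94.1% to 96.0% of loci of similar length. CMQ142C, CMO250C and CMP166C lay within 4.49% of it. The line was fitted at longer loci and is less accurate at short ones. Loci similar in length to CMO250C lay at a median of 5.49%, 8.91% and 10.9% above it. The source of the deviation of CMN234C was not tested.

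From implied fragments over another divisor, the Lhcr genes had the same order in each library, and that of the linkers turned in libraries 2 and 3. When implied fragments were divided by the full coding length and expressed per 1000000 fragments at nuclear loci without overlap, CMN234C had 14209, 14209 and 14267 in libraries 1, 2 and 3, and ranked 1 in each. CMQ142C had 9545, 12270 and 12120, and ranked 2 in each. CMN234C was thus 1.49, 1.16 and 1.18 times CMQ142C, a log2 difference of 0.40 ± 0.25 (SD, n = 2). CMP166C had 6995, 6454 and 6537, above CMO250C with 3356, 4414 and 4463 in each library. On this scale, CMO250C was 0.480, 0.684 and 0.683 times CMP166C, a log2 difference of -0.80 ± 0.36 (SD, n = 2). Both Lhcr genes still exceeded both linkers, by 1.36, 1.90 and 1.85 times for the lower Lhcr gene over the higher linker.

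None of the very short loci exceeded a member on the full-length scale. Loci shorter than 300 bp made up 0 of those above CMO250C, CMP166C or the Lhcr genes in each library. A short coding sequence leaves few positions for a whole fragment, which the divisor of the authors allows for and the full length does not. The fitted line was also used as the divisor, over 3904 loci of at least 300 bp. CMN234C was then higher than CMQ142C in each library (1.47, 1.13 and 1.15 times). This is not a separate result, since both scales use the same implied fragments. Dividing by the line turns the deviation of CMN234C (14.6%, 15.2% and 14.7%) into a higher value. Whether that deviation lies in the divisor or in the implied fragments was not tested. CMO250C was 0.825, 1.42 and 1.45 times CMP166C, in the order of the deposited values. The scales other than FPKM were chosen after the values were seen.

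On the full-length scale the difference between libraries was smaller for CMO250C, CMQ142C and CMN234C and larger for CMP166C. Library 1 minus the mean of libraries 2 and 3, in log2, was -0.40 for CMO250C and -0.35 for CMQ142C. It was -0.0029 for CMN234C and 0.11 for CMP166C. No member passed a factor of 1.5, but the share of all loci that did so was not calculated on this scale. Over 3989 nuclear loci without overlap the quartiles were -0.19 and 0.22. CMQ142C and CMO250C were still 1.28 and 1.32 times lower in library 1. The most even gene on this scale was CMN234C, with an SD of 0.143% of its mean, against 5.24% for CMP166C. Loci of similar length without overlap shifted the same way. On this scale their median was -0.26 for CMO250C, -0.06 for CMQ142C, -0.06 for CMN234C and 0.05 for CMP166C. In FPKM, over all loci of similar length, it was -0.54, -0.20, -0.18 and -0.02. The shift of the members was thus largely shared with other loci of their length.

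**Figure D4:**
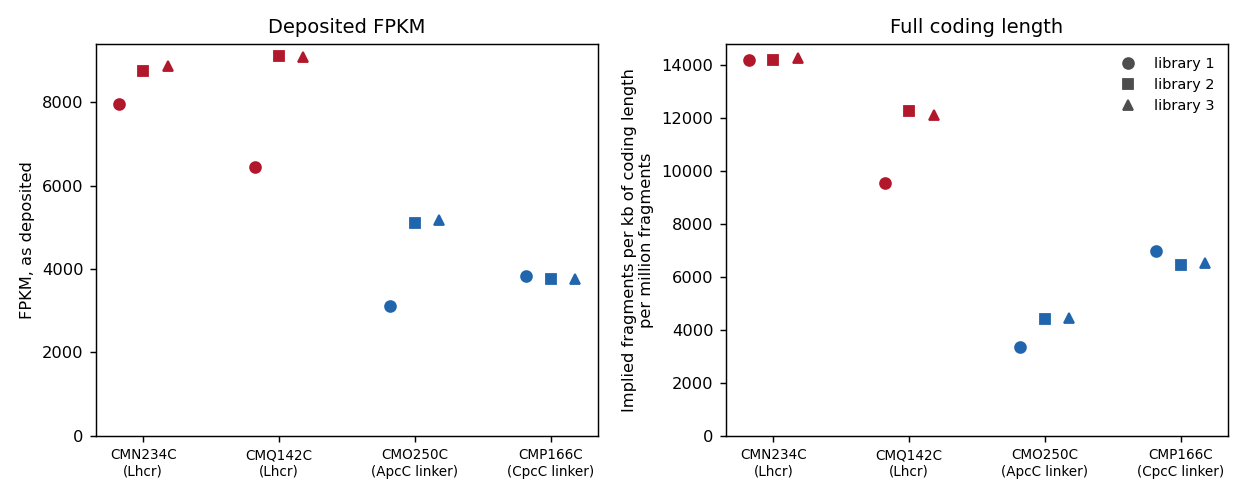
The 4 antenna genes (x axis) in libraries 1, 2 and 3 as deposited FPKM (left y axis) and as implied fragments per kilobase of full coding length per 1000000 fragments (right y axis), both linear from 0. CMN234C is above CMQ142C in each library on the right but only in library 1 on the left, and CMP166C is above CMO250C in library 1 on the left and in each library on the right.

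The members lie on 4 different chromosomes and away from the chromosome ends. The shortest distance from a member to position 1 was 338 kb, for CMQ142C, and the shortest to the end of the last annotated locus was 260.4 kb, for CMO250C. None of the 4 overlaps another annotated locus. Strand is not in the expression tables, and whether transcripts of adjoining loci extend into a member was not tested.

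The loci that adjoin the members were far lower. CMQ143T, a miscellaneous RNA locus in the RefSeq table, begins 39 bp beyond CMQ142C and reached 11.7, 6.82 and 7.70 FPKM. CMQ142C exceeded it 551, 1335 and 1180 times. CMQ141C, 562 bp away on the other side, had 303, 390 and 394. It overlaps another locus, so its value is uncertain. CMO250C adjoins the repetitive element CMO251X at a distance of 106 bp, where the median gap between nuclear loci was 855 bp. CMO251X reached 21.2, 21.6 and 21.8 FPKM, which CMO250C exceeded 147, 236 and 237 times. CMO249C, at 2531 bp on the other side of CMO250C, had 20.7, 24.6 and 25.2. CMP166C exceeded CMP165C 34.7, 36.5 and 36.0 times and CMP167C 149, 137 and 133 times.

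The highest value among the adjoining loci lay beside CMN234C. CMN235Z, at 579788 to 581559 on chromosome 14 and 629 bp from CMN234C, reached 703, 600.1 and 598 FPKM. It overlaps CMN236T, which is listed at 0 in all 3 libraries, so its value is uncertain. It was not used in place of CMN235C, whose class letter differs. CMN234C exceeded CMN235Z 11.3, 14.6 and 14.9 times. CMN233C, 1019 bp away on the other side, had 155, 138 and 137.

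**Figure D5:**
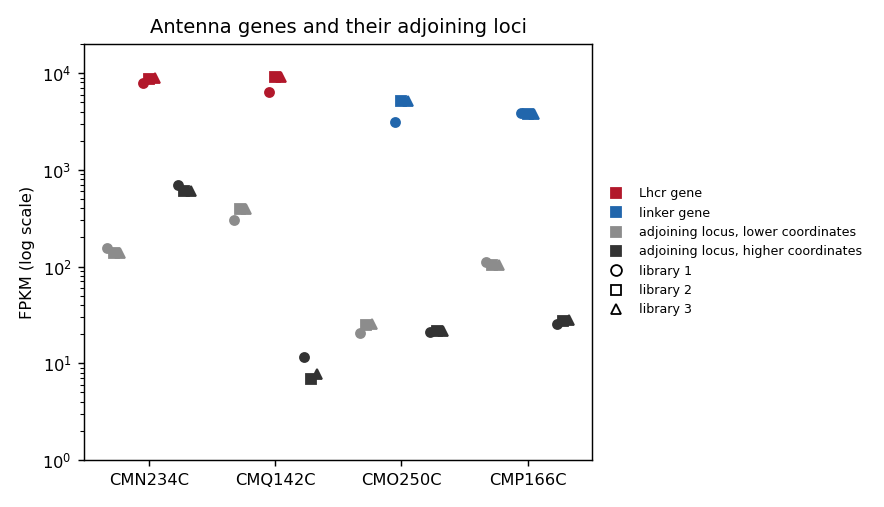
FPKM (y axis, log scale) of each antenna gene and of the adjoining annotated locus at lower (grey) and at higher (black) coordinates, in libraries 1, 2 and 3. Each antenna gene is at 3102 or above, while the adjoining loci range from 6.82 to 703.

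The genes that the study used as negative controls for the histone mark H3K27me3 were set beside the members. They are a translation initiation factor gene, CmEIF4A (CMK028C), and a gene of a large ribosomal subunit protein, Cm60S (CMS262C), and were chosen here after their values were seen. CmEIF4A reached 345, 361 and 361 FPKM, and the lowest member exceeded it 8.99, 10.4 and 10.4 times. Cm60S had 466, 704 and 695, and the lowest member exceeded it 6.65, 5.35 and 5.42 times. Cm60S, at 657 bp close in length to the Lhcr genes, was also lower in library 1.

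Chloroplast transcripts cannot be set beside these values on equal terms, because the RNA was polyadenylated and cDNA was primed with oligo(dT). The median FPKM of the 207 chloroplast loci ending in C was 21.9, 18.9 and 21.1 in libraries 1, 2 and 3. None of them exceeded the lowest antenna gene in library 1, and 1 did so in library 2 and in library 3, at 4141 and 5151. Levels of the nuclear linkers relative to their chloroplast-encoded partners were not analysed here.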

How the data were processed

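The authors deposited, for each of 3 libraries, the FPKM of every locus and its confidence limits from Cufflinks. They had checked reads with FastQC and run the Tuxedo tools in Galaxy, on version 3 of the *C. merolae* Genome Project. Program versions are not given in the sources used here. The authors deposited each library on its own, and for the means here libraries 2 and 3 were averaged into 1 sample. The limits lie 2 SD from the FPKM, so FPKM divided by SD, squared, gave the implied fragments, used only at loci without overlap. FPKM are not counts, and no count test was run. With 4 members measured there were 3 pairs of neighbours, not the 4 foreseen for 5 members. Log values used a pseudocount of 1, with no filter on low values. Python 3.11.15 with numpy 2.4.6, pandas 2.3.3, statsmodels 0.14.6 and matplotlib 3.10.9 was used. The calculations were tested on simulated data whose limits held counting error alone. That checked the arithmetic and not whether the deposited limits have this property. Members and settings were chosen with earlier results of these data known. The loci named are the members, their adjoining loci, the 3 nearest by likeness and those said to be chosen later. Lists of other photosynthesis genes had been foreseen by product name but were not used, since the table of gene names used here holds no product names, and no sequences were used. RefSeq was used for gene types only.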

Additional observations from a re-analysis of the deposited data

How the results depend on the processing

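No paired analysis was possible because all libraries were of a single condition. The difference between Lhcr and linker genes kept its direction under each alternative, from 1.03 to 1.28, and with 2 samples no setting could pass the threshold. In FPKM the order of CMN234C and CMQ142C rests on library 1: leaving out a library gave log2 differences from -0.044 (without library 1) to 0.14. With the fitted divisor the difference was 0.37 and for implied fragments per kb 0.40, with CMN234C higher in each library. Both values come from the same implied fragments and are not independent of each other. CMO250C minus CMP166C was -0.80 for implied fragments per kb of coding length, against 0.07 for FPKM, where leaving out a library gave 0.07 to 0.45, the highest without library 1. On the same scale the difference of CMO250C between libraries was -0.40, no longer past 1.5 times, and the median level of the members over other loci was 6.28 in place of 6.59. As the mean over samples, the rank of CMQ142C was 2.75 among all loci and 1.5 among loci of at least 300 bp and among loci of similar length. That of CMO250C was 9.25, and 6.5 and 2 in those sets and 12.5 for implied fragments per kb. The share of summed FPKM was 4.39% at loci without overlap, 4.89% without the 1% highest other loci and 2.63% in fragments. The other 77 alternatives left the value within the spread or the call as it was, among them a pseudocount of 0.1, a minimum mean FPKM of 1 and scaling to a common median. Many of them left out a library, which can hardly take a value outside the SD of 2 samples. Their number is therefore no measure of how firm the results are. Counting error was below 2% of every member's value, while 2 samples leave the spread between samples poorly known. Whether depth had a part in the difference of library 1 was not tested.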
